A study of Caenorhabditis elegans with 52 samples.

Results

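The piRNAs of Caenorhabditis elegans carrying disl-2(tm5337) were compared with those of animals carrying disl-2(how27), 2 alleles of the same gene, to find which piRNAs and which piRNA classes separate the alleles. The members were the 4 libraries of these 2 genotypes, 2 replicates each, out of 42 small RNA libraries in 21 groups. The table held 14680 piRNAs, and 5618 of them were tested, those averaging 1 RPM or more across the alleles and their control. RPM, the deposited unit, is a read count scaled by the authors to the size of its library, so that values can be compared between libraries of different depth.

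DISL-2 is the worm homolog of DIS3L2, a ribonuclease that degrades RNAs from the 3′ end and is known for acting on RNAs with added uridines. piRNAs are small germline RNAs bound by the Piwi protein PRG-1, and they guide silencing of foreign and self sequences. In this species most piRNA genes are short transcription units of their own, packed into a pair of clusters on chromosome IV. PUP-1 is a poly(U) polymerase, an enzyme that adds uridines to RNA 3′ ends, and PARN-1 is an exonuclease that trims piRNA 3′ ends.

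All libraries came from whole day 1 adults with eggs, kept at 20 °C from synchronized L1 larvae on, and the series' design calls the disl-2 and pup-1 mutants null. The main groups were disl-2(tm5337), disl-2(how27) and a disl-2 isogenic control, all untreated; disl-2 and pup-1 both lie on chromosome III. The same alleles were also combined with pup-1 mutations, as disl-2(tm5337); pup-1(how50) and disl-2(how27); pup-1(how20), so that the double mutants differ in their pup-1 alleles too. The pup-1(tm1021) single mutant and a pup-1 paired control belong to that experiment. One allele each was present in disl-2(tm5337); parn-1(tm869), set beside parn-1(tm869), and in disl-2(how27) with a TOFU-5 degron. That strain carries gfp::aid::tofu-5(how48), a tagged piRNA transcription factor, together with sun-1p::mcherry::tirI, which expresses TIR1 from a germline promoter. Its 0 h libraries are used here, and the labels list 4 mM auxin for the whole time course. Libraries of henn-1(tm4477) and of disl-2(how18); henn-1(tm4477), which carries another disl-2 allele, are cited for the piRNA 21ur-1627. The labels do not state what lesion any disl-2 allele carries. mRNA of disl-2 was not measured in these libraries, so the mutations were not checked in them. Nor do the labels tell whether the 2 replicates of a group were grown apart, so p-values cover the spread between these libraries only, and that spread may be technical.

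Depth was estimated by taking the commonest nonzero RPM value of a library as 1 read. It came to 33032562 and 33001756 reads in disl-2(tm5337), 25382996 and 52798564 in disl-2(how27), and 22051639 and 17928105 in the control. At these depths 3 reads, the limit that a count of 0 allows, amount to between 0.0568 and 0.167 RPM, for counting error only. Replicates correlated across the 5618 piRNAs, which are not independent, with r = 0.98 in disl-2(tm5337) and r = 0.99 in disl-2(how27) on the log2 scale. The median piRNA was 0.36 higher on the log2 scale in replicate 1 than in replicate 2 of disl-2(tm5337), and 0.17 higher in replicate 1 than in replicate 2 of disl-2(how27).

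Total piRNA level was lower in disl-2(tm5337) than in disl-2(how27). It was 68032 and 56978 RPM in the disl-2(tm5337) libraries, against 108722 and 97312 RPM in the disl-2(how27) libraries. The alleles did not overlap, and the control lay between them at 82120 and 75360 RPM. The mean was 62505 ± 7816 RPM (SD, n = 2) in disl-2(tm5337) and 103017 ± 8068 RPM in disl-2(how27), a ratio of 0.607 (log2 -0.72 ± 0.15, SE). An exact permutation test (two-sided) gave p = 0.33, the lowest value that 2 libraries against 2 can reach. RPM is relative to the whole library, so a change in other small RNAs would move the total too. These are whole animals, so such a change, fewer germ cells and less piRNA per germ cell cannot be told apart.

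Most of the piRNAs that separated the alleles were lower in disl-2(tm5337). Of 5618 piRNAs, 3105 were called (55.3%), of which 2836 were lower (50.5%) and 269 higher (4.79%) in disl-2(tm5337) than in disl-2(how27), by limma on log2(RPM + 0.5) with a Benjamini-Hochberg adjusted p under 0.05. The median log2 difference was -0.66. The difference was -1 or below for 1885 piRNAs and -2 or below for 243, whereas it was 1 or above for 88 and 2 or above for 5. Libraries of the alleles did not overlap, with disl-2(tm5337) below, for 3610 piRNAs (64.3%), and with disl-2(tm5337) above for 568 (10.1%).

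The split between lower and higher depends on the scale. When libraries were rescaled to equal medians, which moved the median difference from -0.66 to -0.00062, 1458 piRNAs were lower (26.0%) and 1364 were higher (24.3%). All 269 piRNAs called higher kept that call after rescaling, and 1458 of the 2836 called lower kept theirs. The number called higher was 150 without disl-2(tm5337) replicate 1, and it was 156 and 119 when disl-2(how27) replicates 1 and 2 were left out in turn.

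**Figure D1:**
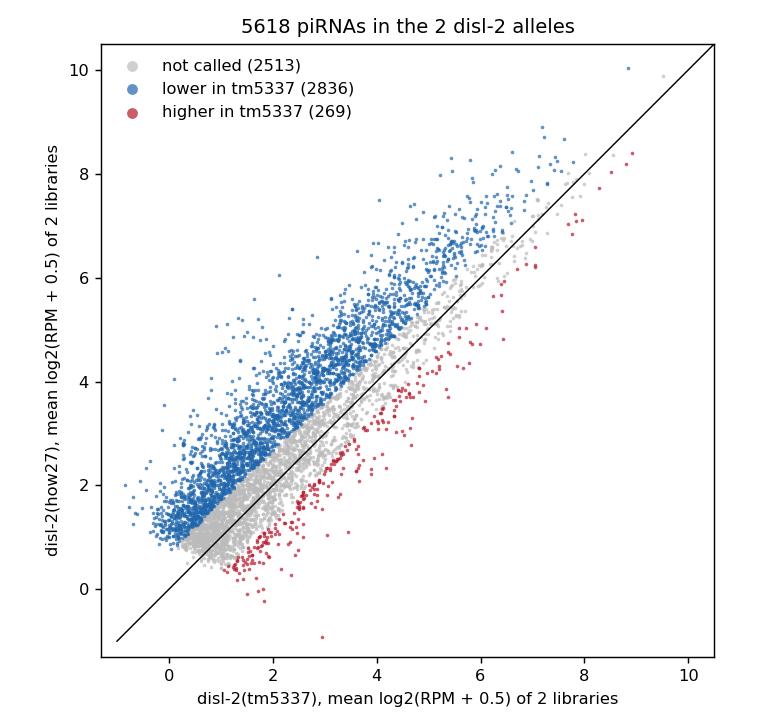
Mean log2(RPM + 0.5) of each of 5618 piRNAs in disl-2(tm5337) (horizontal axis) and disl-2(how27) (vertical axis), each the mean of 2 libraries. Points are piRNAs, coloured by call, and the line marks equal levels. The 2836 piRNAs called lower in disl-2(tm5337) lie above the line at all abundances, and the 269 called higher lie below it.

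The table's class column marks 3814 piRNAs as Spermatogenic and 1745 as Oogenic, names that point to piRNAs made during sperm or oocyte production; 9111 have no class and 10 have another entry, none of which was tested. Spermatogenic piRNAs were the class with the lowest median difference. Of 1904 tested, 1195 were lower (62.8%) and 27 higher (1.42%) in disl-2(tm5337), with a median log2 difference of -0.91, against -0.66 over all piRNAs tested. Oogenic piRNAs had 410 lower (39.2%) and 91 higher (8.71%) of 1045, and a median of -0.39, which became 0.27 on rescaling. Unclassed piRNAs had 1231 lower and 151 higher of 2669, and a median of -0.57, which became 0.09 on rescaling. The Spermatogenic median stayed below 0 after rescaling, at -0.25, with 691 lower and 234 higher, while Oogenic piRNAs then had 171 lower and 379 higher.

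Counts by class moved with single libraries. Higher calls among Spermatogenic piRNAs numbered 11 and 53 when disl-2(tm5337) replicates 1 and 2 were left out, and 12 and 14 when disl-2(how27) replicates 1 and 2 were. Among Oogenic piRNAs, 60 were higher without disl-2(tm5337) replicate 1, and leaving out disl-2(how27) replicates 1 and 2 gave 56 and 40. Unclassed piRNAs gave 79, 88 and 65 higher calls with the same 3 libraries left out in turn. Without disl-2(how27) replicate 1, lower calls fell to 240 for Oogenic and 783 for unclassed piRNAs.

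The summed level of Spermatogenic piRNAs was 15008 and 11568 RPM in disl-2(tm5337), against 28570 and 26570 RPM in disl-2(how27). The ratio of the means was 0.482 (log2 -1.06 ± 0.19, SE). For Oogenic piRNAs the sum was 17129 and 14979 RPM in disl-2(tm5337), against 25050 and 22000.0 RPM in disl-2(how27), a ratio of 0.682 (log2 -0.55 ± 0.13). Both classes were lower in each disl-2(tm5337) library than in either disl-2(how27) library, and each of these sums had a two-sided exact permutation p of 0.33.

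As a share of the piRNA total, which does not move with a change common to all piRNAs, Spermatogenic piRNAs held less in disl-2(tm5337) and the other classes more, the shares of a library adding up to 100%. Spermatogenic piRNAs made up 22.1% and 20.3% in disl-2(tm5337), against 26.3% and 27.3% in disl-2(how27), a difference of -5.61 points. Oogenic piRNAs made up 25.2% and 26.3% in disl-2(tm5337), against 23.0% and 22.6% in disl-2(how27), a difference of 2.91 points. Unclassed piRNAs made up 52.8% and 53.4% in disl-2(tm5337), against 50.7% and 50.1% in disl-2(how27), a difference of 2.70 points. No class overlapped between the alleles, with a two-sided exact permutation p of 0.33 for each, the smallest possible. The control held 23.6% Spermatogenic and 25.4% Oogenic piRNAs on average. For Spermatogenic and Oogenic piRNAs the control groups of the 2 experiments lay further apart than the alleles did. The pup-1 paired control held 17.0% ± 1.59 Spermatogenic and 30.6% ± 1.17 Oogenic piRNAs (SD, n = 2), so that the isogenic control minus the pup-1 paired control came to 6.60 points for Spermatogenic and -5.19 points for Oogenic piRNAs.

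**Figure D2:**
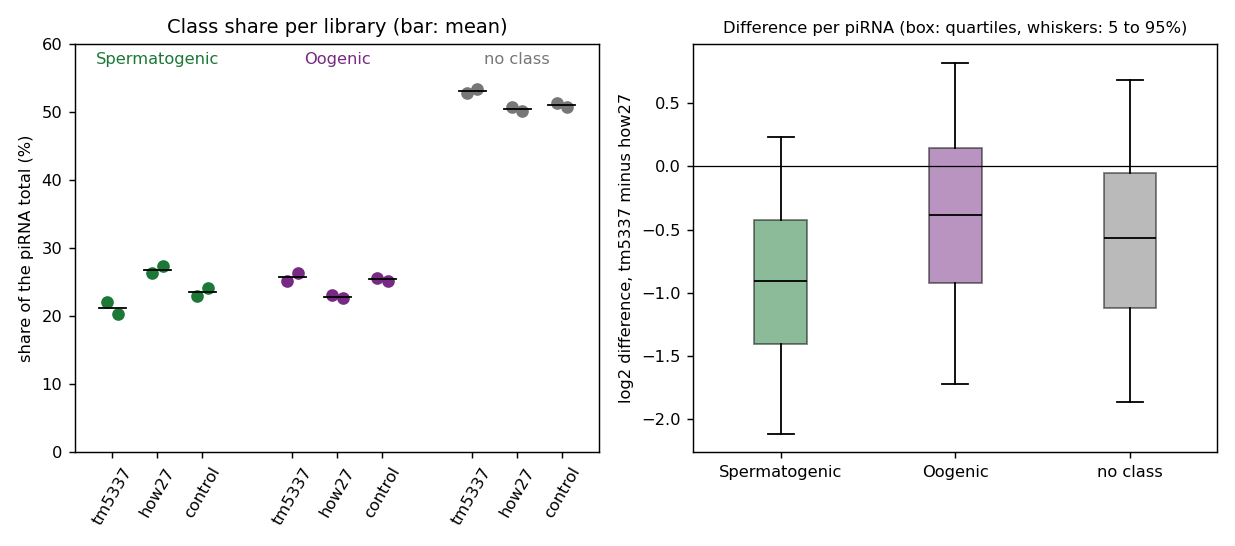
Left, share of the piRNA total (%) held by each class in the 2 libraries of disl-2(tm5337), disl-2(how27) and the isogenic control, with bars for the means. Right, log2 difference per tested piRNA, disl-2(tm5337) minus disl-2(how27), by class, with boxes for quartiles and whiskers from the 5th to the 95th percentile. The Spermatogenic share is lowest in disl-2(tm5337) and the Spermatogenic median, -0.91, is the lowest of the 3 classes.

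Both chromosome IV clusters had medians below 0 as deposited, and cluster a alone kept one after rescaling. Cluster a, nearer the left end of chromosome IV, had 544 lower and 19 higher of 881 tested piRNAs, with a median of -0.92. Cluster b, nearer the right end, had 2273 lower and 250 higher of 4708, with a median of -0.61. Rescaling gave 311 lower and 134 higher in cluster a, with a median of -0.26, and 1136 lower and 1226 higher in cluster b, with a median of 0.05. Within cluster a the medians were -1.07 for Spermatogenic and -0.78 for Oogenic piRNAs, and within cluster b they were -0.87 and -0.37 in that order. Of the 26 tested piRNAs on the rest of chromosome IV, 18 were lower. Only 3 piRNAs of other chromosomes were tested, of which 21ur-10581 was lower, at 0.696 and 0.636 RPM in disl-2(tm5337) and 2.60 and 2.29 RPM in disl-2(how27). piRNAs inside and outside an annotated coding gene had medians of -0.69 and -0.64.

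The difference was also followed along chromosome IV. In 112 runs of 50 neighbouring tested piRNAs, every median was below 0, between -1.24 and -0.24. Medians of the 18 runs mostly in cluster a lay between -1.24 and -0.67. Those of the 94 runs mostly in cluster b lay between -1.03 and -0.24. Runs 18 and 19 in gene order also held piRNAs from outside their cluster. After rescaling 52 of the 112 medians were below 0, among them all 18 of cluster a and 34 of the 94 of cluster b. Differences of adjacent piRNAs were weakly related (r = 0.13 over 5614 pairs, which share libraries). Ranked by abundance in the pup-1 paired control, the least abundant quartile had a median of -0.53 and the most abundant one of -0.77. Oogenic medians were -0.12 in the least and -0.66 in the most abundant quartile, and rescaled they were 0.54 and 0.0028. Spermatogenic medians were -0.72 and -1.18 in the same quartiles, and rescaled -0.07 and -0.52. The least abundant quartile had median levels of 1.35 RPM in disl-2(tm5337) and 2.05 RPM in disl-2(how27). Adding 0.5 RPM before taking logs shrinks differences at such levels, so the quartiles are not on equal terms.

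**Figure D3:**
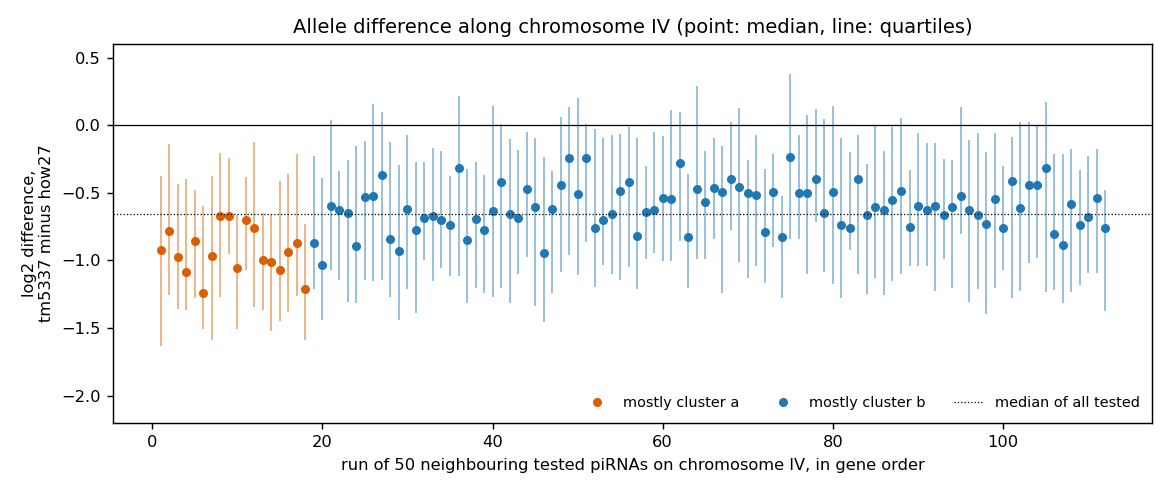
Median (point) and quartiles (line) of the log2 difference, disl-2(tm5337) minus disl-2(how27), in runs of 50 neighbouring tested piRNAs in gene order along chromosome IV. All 112 medians are below 0 as deposited (52 after rescaling, not plotted). Those of runs mostly in cluster a, on the left, lie lower on the whole than those of runs mostly in cluster b.

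The 12 largest differences with disl-2(tm5337) lower, among called piRNAs averaging 5 RPM or more, comprised 8 Spermatogenic piRNAs, 3 Oogenic ones and 1 without a class. Of all tested piRNAs, 33.9% were Spermatogenic, 18.6% Oogenic and 47.5% unclassed. Individual piRNAs have no annotated role in the files, so they are described by class and place. The Oogenic piRNA 21ur-8605 of cluster b was at 1.82 and 1.03 RPM in disl-2(tm5337), against 41.9 and 26.5 RPM in disl-2(how27), with 23.4 and 15.1 RPM in the control. Its levels in disl-2(tm5337) were thus below all other libraries of the fit, a 24.0-fold lower mean than in disl-2(how27) (log2 -4.17 ± 0.28, SE, limma adjusted p = 7.7e-20). The Spermatogenic 21ur-6591 of cluster a was at 1.82 and 1.55 RPM in disl-2(tm5337), against 39.6 and 28.9 RPM in disl-2(how27) and 26.0 and 21.5 RPM in the control (log2 -3.98 ± 0.26, adjusted p = 4.8e-20). For the Spermatogenic 21ur-4151 of cluster b the values were 3.84 and 1.76 RPM in disl-2(tm5337), against 52.6 and 42.9 RPM in disl-2(how27) and 39.0 and 38.2 RPM in the control (log2 -3.94 ± 0.26, adjusted p = 4.8e-20). In each of these the control was near disl-2(how27) and far from disl-2(tm5337).

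The unclassed piRNA 21ur-1120 was at 2.36 and 1.97 RPM in disl-2(tm5337), against 35.3 and 36.9 RPM in disl-2(how27) and 29.7 and 29.1 RPM in the control (log2 -3.78 ± 0.25, adjusted p = 7.7e-20). The Oogenic 21ur-8985 was at 1.36 and 1.45 RPM in disl-2(tm5337), against 25.2 and 20.9 RPM in disl-2(how27) and 22.0 and 26.6 RPM in the control (log2 -3.62 ± 0.27). These 2 piRNAs were close to the control in disl-2(how27). In contrast, the Spermatogenic 21ur-7871 of cluster a was at 2.03 and 1.12 RPM in disl-2(tm5337), 28.2 and 18.9 RPM in disl-2(how27), and 7.71 and 9.15 RPM in the control, so that the alleles lay on opposite sides of the control. Over all 12 piRNAs single libraries were between 0.409 and 4.57 RPM in disl-2(tm5337), between 10.3 and 72.2 RPM in disl-2(how27), and between 7.47 and 45.5 RPM in the control. The other members were 21ur-7404, 21ur-9174, the Oogenic 21ur-326, and 21ur-5876, 21ur-3982 and 21ur-6588, whose values are uncertain because they share reads with other loci.

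The 12 largest differences with disl-2(tm5337) higher were smaller, between 1.48 and 2.35 on the log2 scale. They comprised 5 Oogenic piRNAs, 6 unclassed ones and the Spermatogenic 21ur-9190, all in cluster b. Of all tested piRNAs, 18.6% were Oogenic, 47.5% unclassed and 33.9% Spermatogenic, and 83.8% lay in cluster b. 21ur-9190 was at 16.3 and 6.58 RPM in disl-2(tm5337), against 1.97 and 1.36 RPM in disl-2(how27) and 1.81 and 0.837 RPM in the control (log2 2.35 ± 0.33, adjusted p = 2.3e-08). Its disl-2(tm5337) libraries differed from each other more than those of the next piRNAs, and its call was lost without the filter on low levels (adjusted p = 0.0634). The Oogenic 21ur-2194 was at 24.8 and 25.0 RPM in disl-2(tm5337), against 5.75 and 7.12 RPM in disl-2(how27) and 4.90 and 4.13 RPM in the control (log2 1.88 ± 0.27, adjusted p = 2.9e-08). The unclassed 21ur-4985 was at 49.5 and 34.2 RPM in disl-2(tm5337), against 11.7 and 13.4 RPM in disl-2(how27) and 9.11 and 8.26 RPM in the control (log2 1.67 ± 0.25, adjusted p = 8.7e-08). Control levels were closer to those of disl-2(how27) than to those of disl-2(tm5337) in all 3.

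The most abundant of these, the unclassed 21ur-3787, was at 93.2 and 80.1 RPM in disl-2(tm5337), against 27.4 and 28.1 RPM in disl-2(how27) and 27.4 and 24.4 RPM in the control (log2 1.62 ± 0.22, adjusted p = 9.8e-09). 21ur-4188, also unclassed, was at 38.0 and 42.3 RPM in disl-2(tm5337), against 15.1 and 13.1 RPM in disl-2(how27) and 13.3 and 12.3 RPM in the control (log2 1.48 ± 0.24, adjusted p = 6.2e-07). Their disl-2(how27) means differed from the control's by only 0.10 and 0.13 on the log2 scale. Beyond these 12, the Spermatogenic 21ur-5230 of cluster a was at 59.1 and 50.4 RPM in disl-2(tm5337), against 20.3 and 19.7 RPM in disl-2(how27) and 25.9 and 18.4 RPM in the control (log2 1.43 ± 0.23). The remaining ones of the 12 were 21ur-4894, 21ur-2400, 21ur-375, 21ur-2330, 21ur-12172, 21ur-6656 and 21ur-1859. They were between 10.7 and 30.7 RPM in disl-2(tm5337) libraries and between 2.97 and 9.42 RPM in disl-2(how27) libraries. Control libraries had between 1.59 and 10.9 RPM. For these piRNAs disl-2(how27) minus the control lay between -0.20 (21ur-12172) and 0.84 (21ur-2400) on the log2 scale. It was 0.79 for 21ur-4894, 0.69 for 21ur-1859 and 0.55 for 21ur-375, so disl-2(how27) was not always close to the control.

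Of the 5 most abundant piRNAs, 1 was lower, 2 were higher and 2 missed the threshold. 21ur-2446, unclassed, was at 500 and 416 RPM in disl-2(tm5337), against 1102 and 1000 RPM in disl-2(how27) and 740 and 764 RPM in the control (log2 -1.20 ± 0.17, adjusted p = 1.3e-08), but it missed the threshold after rescaling (log2 -0.54, adjusted p = 0.169). 21ur-4572 was at 526 and 443 RPM in disl-2(tm5337), against 356 and 317 RPM in disl-2(how27) (log2 0.52 ± 0.18, adjusted p = 0.0118), a call lost without disl-2(tm5337) replicate 1 or disl-2(how27) replicate 2 (log2 0.40 and 0.44), without the filter on low levels (adjusted p = 0.199) and in a fit of all 42 libraries (adjusted p = 0.0665). The call for 21ur-3375, which shares reads, with 404 and 492 RPM in disl-2(tm5337) and 266 and 316 RPM in disl-2(how27) (log2 0.62), was lost without disl-2(tm5337) replicate 2 or disl-2(how27) replicate 1 (log2 0.48 and 0.50), without the filter (adjusted p = 0.158) and in the fit of all 42 libraries (adjusted p = 0.0825). The most abundant, 21ur-3730, was at 656 and 817 RPM in disl-2(tm5337) and 973 and 914 RPM in disl-2(how27), and missed the threshold (log2 -0.36 ± 0.17, adjusted p = 0.0635). 21ur-739, Oogenic and sharing reads, and 21ur-1, a commonly probed piRNA, missed it too (log2 0.18 ± 0.19, adjusted p = 0.421; log2 -0.34 ± 0.28, adjusted p = 0.308). After rescaling 21ur-739 passed (log2 0.84, adjusted p = 0.0154), while 21ur-3730 and 21ur-1 changed sign without passing (log2 0.29 and 0.32). 21ur-1 was at 8.11 and 7.91 RPM in disl-2(tm5337) and 12.8 and 8.14 RPM in disl-2(how27). Limma calls for 21ur-3730 passed the threshold when the 4 allele libraries were fitted alone and when either control library was left out, at the same log2 value, and with voom (adjusted p = 0.0423).

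No piRNA was listed at 0 in both libraries of one allele while averaging 1 RPM or more in the other. The largest rise on the log2 scale was that of 21ur-1627, an unclassed piRNA of cluster b. It averaged under 5 RPM, below the limit for the piRNAs above, and was picked after its values were seen. It had 7.42 and 7.12 RPM in disl-2(tm5337), against 0 and 0.0568 RPM in disl-2(how27), and was listed at 0 in both control libraries. At the estimated depths these are 480 reads in disl-2(tm5337) and 3 reads in disl-2(how27). Scaled to depth the ratio is 189, with an exact 95% interval from 64.4 to 922 for counting error only. The limma difference was 3.88 ± 0.30 on the log2(RPM + 0.5) scale (adjusted p = 3.4e-17). Other libraries held it too. The pup-1(tm1021) libraries had 10.6 and 7.89 RPM. In mutants of henn-1, the methyltransferase of piRNA 3′ ends, it was at 15.1 and 16.6 RPM in disl-2(how18); henn-1(tm4477) and at 39.7 and 75.1 RPM in henn-1(tm4477). The piRNA totals of these libraries were far higher, between 227760 and 294720 RPM, against 68032 and 56978 RPM in disl-2(tm5337). The parn-1(tm869) libraries had 0.948 and 0.992 RPM. All libraries of both pup-1; disl-2 double mutants, of disl-2(tm5337); parn-1(tm869) and of the pup-1 paired control were at 0. In gene order it lies 3 places from 21ur-4151, which was lower in disl-2(tm5337). The other piRNAs with a difference of 2 or above were 21ur-9190, 21ur-426, at 7.66 and 7.76 RPM in disl-2(tm5337) and 1.85 and 1.29 RPM in disl-2(how27), 21ur-5202, at 6.02 and 3.48 RPM in disl-2(tm5337) and 0.473 and 1.02 RPM in disl-2(how27), and 21ur-3301, at 3.15 and 2.97 RPM in disl-2(tm5337) and 0.355 and 0.360 RPM in disl-2(how27).

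The isogenic control was set beside both alleles. It shares a fit with them, so its values are given as a description only. Among the 269 piRNAs called higher in disl-2(tm5337), the control was nearer to disl-2(how27) for 268. It was nearer to disl-2(how27) for 1726 of the 2836 called lower and for 3111 of all 5618 tested. disl-2(how27) lay above the control for 91.9% of all tested piRNAs, so a call of higher largely fixes the count of 268. The exception among the 269 was 21ur-4934, at 115 and 60.4 RPM in disl-2(tm5337), 51.3 and 48.7 RPM in disl-2(how27), and 65.0 and 64.4 RPM in the control. For the 269, the median difference from the control was 1.25 for disl-2(tm5337) and 0.34 for disl-2(how27) on the log2 scale. Among the 2836 called lower the control lay between the alleles for 2499, as it did for 3144 of all 5618 tested. The medians of those called lower were -0.69 for disl-2(tm5337) and 0.53 for disl-2(how27). Over all tested piRNAs those medians were -0.19 and 0.47.

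The profiles were also compared with every other group, as correlations of mean log2 levels across 5618 piRNAs, which share libraries and depth. disl-2(how27) correlated most with the isogenic control (r = 0.98). disl-2(tm5337) correlated at r = 0.88 with disl-2(how27) and r = 0.89 with the control, and its highest value was with pup-1(tm1021) (r = 0.93), to which disl-2(how27) came at r = 0.86. Strain backgrounds were not checked, so an effect of the allele and of other differences between the strains cannot be told apart in any of these comparisons. Both double mutants were nearer to disl-2(how27), at r = 0.95 for disl-2(tm5337); pup-1(how50) and r = 0.93 for disl-2(how27); pup-1(how20), than to disl-2(tm5337), at r = 0.90 and r = 0.88 in the same order.

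The piRNAs that separated the alleles were then followed in libraries that the allele comparison did not use. The pup-1(tm1021) comparison was chosen after seeing the data. The 243 piRNAs with a log2 difference of -2 or below had a median level of 2.57 RPM in disl-2(tm5337) and 17.51 RPM in disl-2(how27). In pup-1(tm1021) the same piRNAs had a median of 2.49 RPM, against 8.25 RPM in the pup-1 paired control, and 239 of the 243 (98.4%) were lower in pup-1(tm1021) than in its control, against 82.4% of all 5618. Their median log2 difference in pup-1(tm1021) was -1.58, against -0.76 over all 5618 piRNAs. For the 88 piRNAs with an allele difference of 1 or above, that median was -0.43.

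Of the 12 largest falls, each had both pup-1(tm1021) libraries below both pup-1 paired control libraries, as had 4004 of all 5618 tested piRNAs (71.3%). 21ur-8605 was at 3.02 and 2.61 RPM in pup-1(tm1021), against 23.2 and 21.6 RPM in the pup-1 paired control. 21ur-4151 was at 3.15 and 3.12 RPM in pup-1(tm1021), against 33.6 and 24.0 RPM in that control. 21ur-6591 was at 1.93 and 0.966 RPM in pup-1(tm1021), against 15.1 and 15.5 RPM in that control. Their levels in pup-1(tm1021) were thus close to those in disl-2(tm5337), and no test joined these mutants. The largest rises differed among themselves. For 21ur-2194 the pup-1(tm1021) libraries had 16.9 and 14.1 RPM, against 10.4 and 8.70 RPM in that control. For 21ur-4985 they had 20.0 and 22.0 RPM, against 5.50 and 5.26 RPM. 21ur-2330 lay on the other side, with 1.22 and 1.09 RPM in pup-1(tm1021), against 5.54 and 5.70 RPM in that control. So did 21ur-4188, with 14.1 and 12.2 RPM in pup-1(tm1021), against 45.6 and 38.7 RPM in that control. 21ur-4894, 21ur-2400 and 21ur-6656 also had both pup-1(tm1021) libraries below both libraries of that control. For the rest, 21ur-9190, 21ur-3787, 21ur-375, 21ur-12172 and 21ur-1859, the libraries overlapped.

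**Figure D4:**
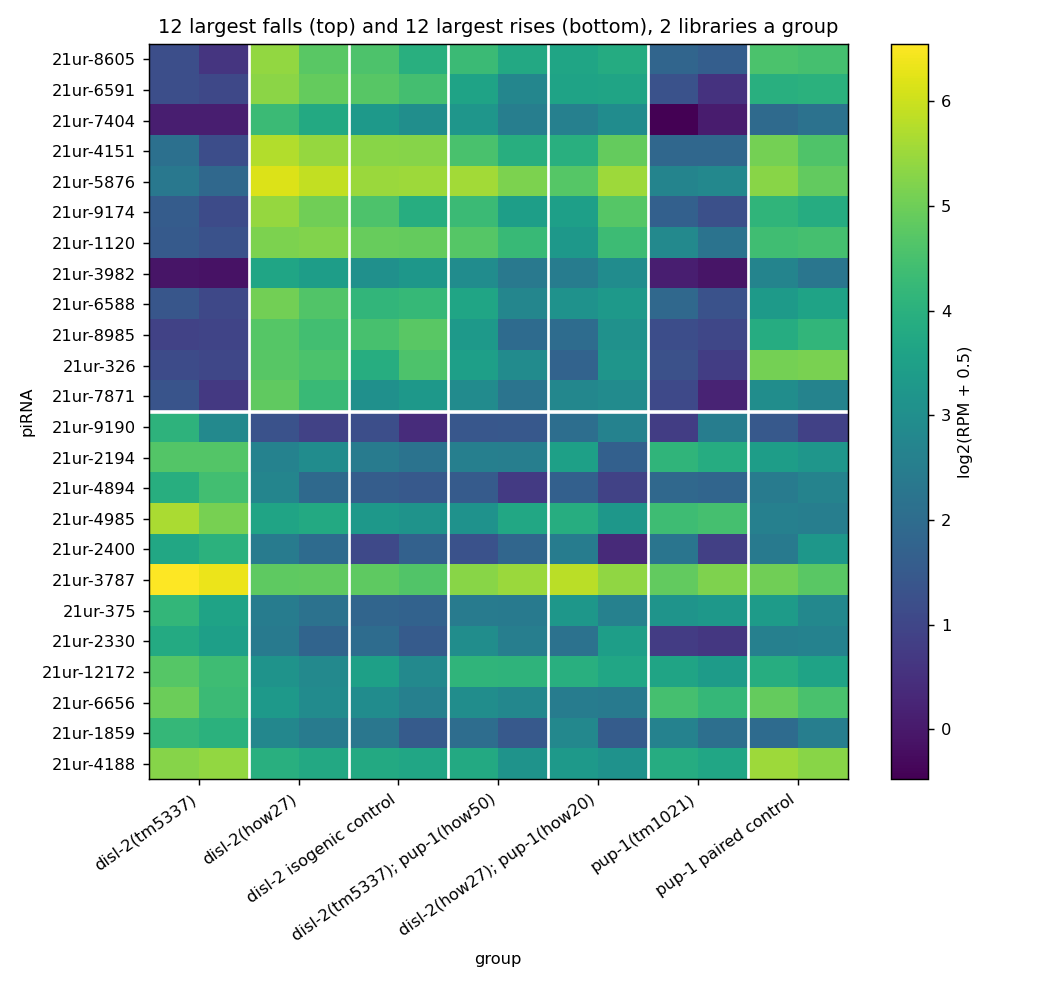
log2(RPM + 0.5) of the 12 largest falls (top) and 12 largest rises (bottom) in disl-2(tm5337) against disl-2(how27), in the 2 libraries of each of 7 groups. The 12 falls are dark in disl-2(tm5337) (0.409 to 4.57 RPM) and in pup-1(tm1021) (0.218 to 6.58 RPM). Within each row they are brighter in the other 5 groups, whose single libraries start at 2.86 RPM (21ur-326), so ranges overlap between rows.

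The same pair of disl-2 alleles was next compared together with pup-1 mutations, where few single piRNAs passed the test. Of 5120 piRNAs tested, 2 were higher (0.0391%) and 0 lower (0.0%) in disl-2(tm5337); pup-1(how50) than in disl-2(how27); pup-1(how20) by limma, with 411 at an unadjusted p under 0.05. Voom gave 2 and 0 as well, whereas a pseudocount of 0.1 or 2, no filter, rescaling, a fit of the compared libraries alone and the replicate block each gave 0 higher. The Oogenic 21ur-5515 was at 11.1 and 8.53 RPM in disl-2(tm5337); pup-1(how50), against 2.28 and 3.14 RPM in disl-2(how27); pup-1(how20) (log2 1.69 ± 0.31, adjusted p = 0.0398). Without pup-1 mutations it was lower in disl-2(tm5337), at 11.5 and 8.06 RPM, than in disl-2(how27), at 23.7 and 14.8 RPM (log2 -0.92 ± 0.27, adjusted p = 0.00266). The unclassed 21ur-6320 was at 47.4 and 41.4 RPM in disl-2(tm5337); pup-1(how50), against 12.1 and 20.8 RPM in disl-2(how27); pup-1(how20) (log2 1.45 ± 0.28, adjusted p = 0.0464). Both were named after their values were seen. The 2 calls were lost when any 1 control, pup-1(tm1021) or disl-2(tm5337); pup-1(how50) library was left out. Without replicate 1 or 2 of disl-2(how27); pup-1(how20), 17 and 154 piRNAs were higher and 12 and 25 lower.

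Levels of the separating piRNAs were close to each other in the double mutants. Over the 2836 piRNAs lower in disl-2(tm5337), the median log2 difference between the double mutants was 0.04, over the 269 higher it was 0.09, and over all tested it was 0.06. The 243 largest falls had medians of 7.91 RPM in disl-2(tm5337); pup-1(how50) and 6.94 RPM in disl-2(how27); pup-1(how20). 21ur-8605 was at 19.4 and 13.1 RPM in disl-2(tm5337); pup-1(how50), against 12.1 and 13.97 RPM in disl-2(how27); pup-1(how20). 21ur-4151 was at 22.6 and 14.7 RPM in disl-2(tm5337); pup-1(how50), against 15.1 and 28.9 RPM in disl-2(how27); pup-1(how20). For both, the libraries of the double mutants overlapped. Across piRNAs the allele difference with and without pup-1 mutations was nearly unrelated (r = 0.06, Spearman rho = 0.08, 5618 piRNAs, no shared libraries).

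The difference of differences was tested directly in a fit chosen after seeing the data. Of 5369 piRNAs, 2008 had a lower allele difference (37.4%) and 79 a higher one (1.47%) without than with the pup-1 mutations, by limma over 14 libraries. These differences contain the allele difference itself, so piRNAs called between the alleles enter them by construction. After rescaling 683 had a lower and 567 a higher allele difference. Lower differences numbered 1238 without disl-2(tm5337) replicate 2. They came to 1249 when disl-2(how27) replicate 1 was left out, and to 1235 without replicate 1 of disl-2(tm5337); pup-1(how50). Higher differences numbered 48 and 50 when disl-2(how27) replicates 1 and 2 were left out, 169 without disl-2(how27); pup-1(how20) replicate 2, and 48 without disl-2(tm5337); pup-1(how50) replicate 2. For 21ur-8605 the difference of differences was -4.45 (adjusted p = 1.3e-08). The disl-2 and pup-1 experiments have separate controls, and the pup-1 alleles differ between the double mutants, so these cannot be told apart from the presence of a pup-1 mutation.

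**Figure D5:**
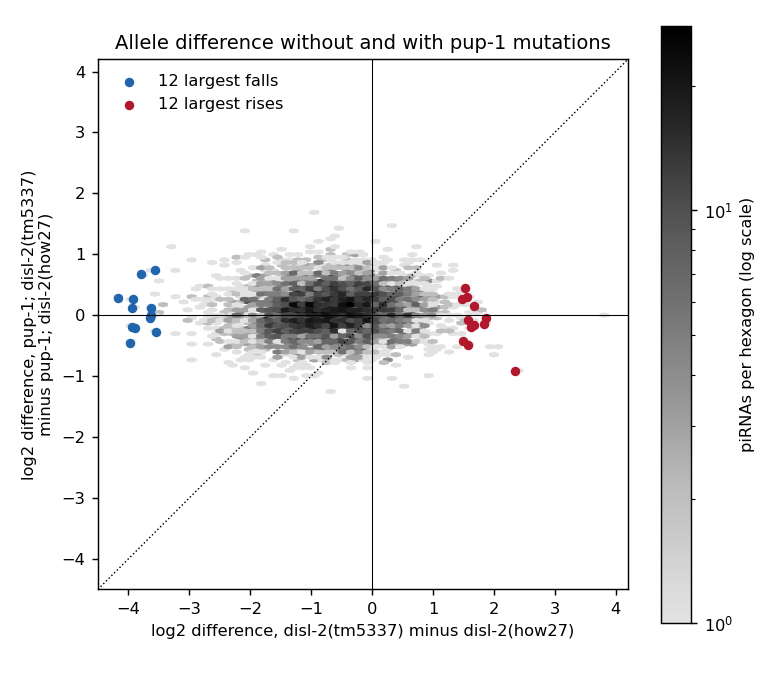
log2 difference between the disl-2 alleles for 5618 piRNAs, without pup-1 mutations (horizontal axis, disl-2(tm5337) minus disl-2(how27)) and with them (vertical axis, the double mutants in the same order). Shading counts piRNAs per hexagon and the dotted line marks equal differences. The 12 largest falls and 12 largest rises lie far from 0 on the horizontal axis but between -0.91 and 0.73 on the vertical one.

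Class shares differed between the double mutants much as between the single mutants. Spermatogenic piRNAs made up 25.7% and 24.1% in disl-2(tm5337); pup-1(how50), against 30.2% and 30.6% in disl-2(how27); pup-1(how20), a difference of -5.50 points. Oogenic piRNAs made up 23.4% and 23.9% in disl-2(tm5337); pup-1(how50), against 20.9% and 20.0% in disl-2(how27); pup-1(how20), a difference of 3.19 points. Neither pair overlapped, and each had a two-sided exact permutation p of 0.33. Total piRNA level was 75567 and 60589 RPM in disl-2(tm5337); pup-1(how50), against 66833 and 64307 RPM in disl-2(how27); pup-1(how20), and these libraries overlapped. The medians per piRNA were -0.15 for Spermatogenic and 0.28 for Oogenic piRNAs.

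Other libraries held 1 of the alleles each. In disl-2(tm5337); parn-1(tm869) minus parn-1(tm869), the piRNAs lower in disl-2(tm5337) had a median log2 difference of 0.31, against 0.22 over all tested. Among the largest falls, 21ur-4151 was at 10.1 and 7.46 RPM in disl-2(tm5337); parn-1(tm869) and 2.62 and 3.25 RPM in parn-1(tm869). 21ur-8985 was at 0.956 and 3.65 RPM in disl-2(tm5337); parn-1(tm869) and 8.67 and 8.49 RPM in parn-1(tm869). At 0 h in the TOFU-5 degron strain, disl-2(how27) minus its own background had a median of -0.20 over the piRNAs lower in disl-2(tm5337) and -0.16 over all. The pair of control groups differed for these sets as well. The disl-2 isogenic control minus the pup-1 paired control had a median of -0.78 over the 269 piRNAs higher in disl-2(tm5337), with 223 below 0, and of 0.12 over the 2836 lower ones, against -0.18 over all.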

How the data were processed

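Small RNA libraries were made from RNA treated with the phosphatase PIR-1, per the labels' protocols. Values were deposited by the authors as RPM per piRNA and library. Trim Galore and Bowtie are named in the submitters' processing notes; versions, the genome build and the handling of multiple hits are not given in the sources used here. Values came out as multiples of a twelfth of a read, between 86.8% and 88.0% of them whole within 0.01 read in the libraries of the disl-2 fit, so reads were divided between loci and no count test was run. Of the tested piRNAs 25.5% share reads. All 14680 identifiers matched a name; positions come from the WBcel235 gene table and are used only for order and neighbourhood. Of 52 samples, 10 were not analysed here.

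Limma 3.58.1 in R 4.3.3 with a trended prior was fitted to log2(RPM + 0.5) of piRNAs averaging 1 RPM or more, over 6 libraries for the alleles, 8 for the pup-1 groups and 14 for the difference of differences. Fold differences on this scale understate those of low piRNAs. In the allele fit the residual degrees of freedom were 3 and the prior ones 62.6, so very small adjusted p-values rest on a spread pooled over piRNAs. Sums and shares were compared by exact permutation. Replicates differed by more than counting noise in each group (chi-square per degree of freedom 2.10 to 38.2). On simulated data the allele fit, run on 5618 piRNAs, found 64% of changes of 1 and 98% of those of 2 on the log2 scale. It called 8 unchanged piRNAs. The pup-1 fit, run on 5120, found 40% and 96% and called 6. The simulated noise was drawn apart for each piRNA, with no offset common to a library. The real disl-2(tm5337) replicates differ by 0.36 at the median, so these numbers do not tell how such an offset moves calls.

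Named piRNAs were, among called ones averaging 5 RPM or more across the 4 allele libraries and without overlap, the 12 largest rises and falls and the 4 largest each way in Spermatogenic and Oogenic, the 5 most abundant, 21ur-1, and up to 5 each way listed at 0 in 1 allele (all under 1 RPM, not described). The comparisons, lists and members were chosen with earlier results of these data known. The settings tried besides were pseudocounts of 0.1 and 2, no filter or a mean of 5 RPM, rescaling to equal medians, fits over the compared or all 42 libraries, a replicate block, voom on estimated reads, leaving out piRNAs that share reads, and leaving out each library. No sequence was available here, so none is shown.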

Additional observations from a re-analysis of the deposited data

Results flagged for a closer look

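The allele difference itself differed between animals without and with pup-1 mutations, by the tested difference of differences. This held for 2008 piRNAs with a lower and 79 with a higher allele difference without pup-1 mutations, and for 683 and 567 after rescaling. The piRNAs below were picked mostly by their allele difference, which this measure contains, so large values are in part built in. Separate controls and the differing pup-1 alleles cannot be told apart from the presence of a pup-1 mutation. The values below are the log2 difference disl-2(tm5337) minus disl-2(how27), less the same difference between the double mutants.

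Among the largest falls it was -4.45 for 21ur-8605, -3.52 for 21ur-6591, -4.07 for 21ur-7404, -3.75 for 21ur-4151, -4.20 for 21ur-5876 and -3.68 for 21ur-9174. It was -4.45 for 21ur-1120, -3.61 for 21ur-3982, -3.62 for 21ur-6588, -3.73 for 21ur-8985, -4.30 for 21ur-326 and -3.27 for 21ur-7871. The Oogenic 21ur-4502, which shares reads, had -3.87, and the abundant 21ur-2446 had -1.60.

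Among the largest rises it was 3.25 for 21ur-9190, 1.93 for 21ur-2194, 2.00 for 21ur-4894, 1.84 for 21ur-4985, 1.82 for 21ur-3787 and 2.07 for 21ur-375. It was 1.65 for 21ur-2330, 1.25 for 21ur-12172, 1.08 for 21ur-6656, 1.91 for 21ur-1859 and 1.21 for 21ur-4188. The Spermatogenic rises had 1.96 for 21ur-5230, 1.06 for 21ur-3987 and 1.19 for 21ur-3322. The abundant 21ur-3375, which shares reads, had 1.11. Among the 12 largest rises, 21ur-2400 missed the threshold of this test (1.52, adjusted p = 0.0595).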

How the results depend on the processing

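The total, the class sums and the class shares kept their direction under each alternative run, the total between -0.85 and -0.60 on the log2 scale with 1 library left out. A mean of at least 5 RPM gave 144 piRNAs higher and 1719 lower between the alleles, fewer being tested, and rescaling gave 1364 and 1458. Leaving out each library gave 119 to 364 higher and 1908 to 3312 lower. With replicate number as a block, 304 were higher and 2927 lower; deviations of same-numbered libraries correlated at 0.06 between the alleles and at -0.17 and 0.19 with the control, so the numbers were not taken to pair samples. Between the double mutants, a pseudocount of 0.1 or 2, no filter, rescaling, only the compared libraries, and the replicate block each gave 0 higher; no filter gave 3 lower; leaving out each library gave 0 to 154 higher and 0 to 25 lower. Their deviations correlated at -0.32, and a block with crossed numbers, chosen after seeing the data, gave 2 higher and 0 lower. For the difference of differences, no filter gave 121 higher, a mean of 5 RPM 50 higher and 1290 lower, and rescaling 567 and 683, with 48 to 169 higher and 1235 to 2334 lower with 1 library left out. The causes were not tested. Of 537 values of named piRNAs under alternatives, 517 kept direction and side of the threshold, 12 lost and 5 gained a call, and 3 reversed, all without a call: rescaling gave 0.29 for 21ur-3730 and 0.32 for 21ur-1, and leaving out disl-2(tm5337) replicate 1 gave -0.13 for 21ur-739, with 0.49 without replicate 2. With 1 library of an allele left out, the lone library is assumed to vary like the other groups. The 2 libraries a group, divided reads and the limit of 3 reads bound what can be told of low piRNAs.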
